A study of Mus musculus with 6 samples.

Results

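The genes described are 36 targets and regulators of the sterol regulatory element binding proteins (SREBPs), taken by symbol from a count table of 24391 genes. They comprise 17 genes of sterol synthesis, 5 SREBP regulators, 2 genes of sterol transport, 2 efflux genes driven by the liver X receptors (LXR), and 10 genes of fatty acid synthesis. All 36 symbols were found, and 34 passed the filter on low counts and were tested. The RNA came from Neuro2a, a mouse neuroblastoma line. Its medium was exchanged for D-MEM(-SG) with 10% fetal bovine serum, and poly(A) RNA was collected 18 h later. The control group (n = 3) received vehicle and the D-serine group (n = 3) received 5 mM D-serine, the D-enantiomer of serine, which NMDA-type glutamate receptors bind as co-agonist. No genotype, transgene or further agent distinguished the groups. The labels do not state whether the libraries of a group came from separate cultures, so p-values measure the spread between these samples, which may be technical.

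SREBPs are made as precursors anchored in the endoplasmic reticulum, where Scap, a sterol sensor, escorts them. When membrane sterol is high, Insig proteins hold Scap back. When it is low, SREBPs reach the Golgi, are cut by the Mbtps1 and Mbtps2 proteases, and enter the nucleus. There SREBP-2, encoded by Srebf2, acts mainly on genes of sterol synthesis and uptake, and SREBP-1c, from Srebf1, mainly on genes of fatty acid synthesis. LXRs respond to oxysterols and drive the efflux transporters Abca1 and Abcg1 as well as Srebf1. The brain makes its own cholesterol, since plasma lipoproteins do not cross into it. The libraries measured RNA, and cleavage of the SREBP proteins was not measured.

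Total counts per library lay between 32518483 and 40024265. All 9 sympathetic neuroblast markers were expressed, with summed levels of 1420 to 1487 CPM (counts scaled to library size) in control and 1527 to 1633 CPM after D-serine. Of these markers 1, the neuronal tubulin gene Tubb3, rose (log2 fold change 0.25, adjusted p = 0.0148). The 6 fibroblast, 6 glial and 5 leukocyte markers summed to at most 6.90, 16.2 and 2.08 CPM in any library, and Lum, Thy1, Aqp4 and Cd3e were among those with no count. D-serine replicate 1 stood apart. Chi-square per degree of freedom over genes was 17.7 and 13.9 for it against the other D-serine libraries, which differed from each other by 4.07, and control pairs differed by 3.88 to 6.54. Long transcripts were also relatively low in that library, so results that rest on it are given with and without it.

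RefSeq promoter windows of GRCm38.p6, from 250 bases before to 50 bases after the start, were available for 27 of the 36 genes (36 windows). They are given as a description of sequence. The members were listed as SREBP targets and regulators, so motif shares are not independent of that list. The 3 windows printed first belong to Insig1, the member with the smallest p, Hmgcs1, the member with a sterol response element core, and Fasn, the central gene of the fatty acid arm. Each is written 5′ to 3′ on the gene's strand. Capitals mark exact matches on either strand to the sterol response element core TCACNCCAC, the E-box CACGTG, the CCAAT box (CCAAT, or ATTGG on the other strand) and the GC box (GGGCGG, or CCGCCC). These bind SREBP, basic helix-loop-helix factors, NF-Y and Sp1 respectively, the last pair being known partners of SREBP.
Insig1, chr5:28071162-28071461, plus strand: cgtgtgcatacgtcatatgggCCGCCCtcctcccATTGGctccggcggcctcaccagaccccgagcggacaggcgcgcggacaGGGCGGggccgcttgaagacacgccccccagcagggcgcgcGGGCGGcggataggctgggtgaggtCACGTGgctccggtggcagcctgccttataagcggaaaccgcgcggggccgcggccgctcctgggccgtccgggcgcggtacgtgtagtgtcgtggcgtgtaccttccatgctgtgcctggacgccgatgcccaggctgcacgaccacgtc
Hmgcs1, chr13:119690101-119690400, plus strand: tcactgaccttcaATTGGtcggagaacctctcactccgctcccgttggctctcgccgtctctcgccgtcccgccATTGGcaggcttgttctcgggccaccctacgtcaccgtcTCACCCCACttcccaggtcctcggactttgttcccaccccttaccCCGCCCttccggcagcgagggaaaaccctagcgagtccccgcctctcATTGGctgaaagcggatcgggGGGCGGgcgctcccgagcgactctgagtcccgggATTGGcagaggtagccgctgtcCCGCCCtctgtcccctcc
Fasn, chr11:120824498-120824797, minus strand: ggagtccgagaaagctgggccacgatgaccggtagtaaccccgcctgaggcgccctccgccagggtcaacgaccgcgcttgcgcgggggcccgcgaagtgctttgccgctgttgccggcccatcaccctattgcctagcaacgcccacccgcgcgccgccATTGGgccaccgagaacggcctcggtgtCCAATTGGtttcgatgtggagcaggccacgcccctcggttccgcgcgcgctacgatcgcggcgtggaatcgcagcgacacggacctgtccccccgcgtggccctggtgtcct
The Insig1 window held 1 CCAAT box, 3 GC boxes and 1 E-box. The Hmgcs1 window held 8 matches, among them the response element core 137 bases before the start, 4 CCAAT boxes and 3 GC boxes. The Fasn window held 3 CCAAT boxes, of which a pair on opposite strands overlap, and no GC box match.

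Across windows, a CCAAT box was found in 13 of 17 (76.5%) from sterol synthesis genes, 5 of 10 from regulators and 4 of 8 (50%) from fatty acid genes, against 37.4% of all 32851 mouse windows. A GC box was found in 14 of 17 (82.4%), 8 of 10 and 3 of 8 (37.5%) respectively, against 35.7% of all windows. The E-box occurred in 8 of 36 members' windows (22.2%) and in 7.15% of all. Some genes had several windows, and overlapping Scap windows shared the same E-box. By gene, 7 of 27 members had an E-box, against 2187 of all 27025 genes with a window. The response element core occurred in 1 of 36, against 1.24% of all windows. A match is a run of letters in this window, not a binding site, and motifs outside the window or with other letters were not searched. The set of all windows was not matched to the members for expression or base composition, so the cause of any difference was not tested. Among the genes that rose with D-serine, Fdft1, Stard4 and Scd2 had no window, and neither did Fdps, Sqle, Npc1, Abcg1, Scd1 and Fads1. Pmvk had a window with 1 CCAAT box and no other match, shown here because it is the sterol synthesis gene that rose most.
Pmvk, chr3:89454291-89454590, plus strand: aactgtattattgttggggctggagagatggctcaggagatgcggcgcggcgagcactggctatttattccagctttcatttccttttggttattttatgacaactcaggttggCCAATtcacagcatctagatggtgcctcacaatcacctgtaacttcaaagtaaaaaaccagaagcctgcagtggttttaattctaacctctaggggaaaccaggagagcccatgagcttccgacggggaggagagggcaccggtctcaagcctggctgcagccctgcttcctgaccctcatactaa
A further Pmvk window, chr3:89459321-89459620, held none of the 4 motifs. Which start Neuro2a cells use was not tested, so neither window is read as the active promoter of Pmvk.

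With D-serine, 5 of the 34 tested members rose and 0 fell: the sterol synthesis genes Pmvk and Fdft1, the SREBP regulator Insig1, the sterol carrier Stard4 and the desaturase Scd2. The increases were small, between 15.2% and 23.3%. Calls were made at an adjusted p under 0.05 in edgeR's quasi-likelihood F test, fitted to all 13366 expressed genes. The 5 members are 14.7% of those tested, where 4.84% of all tested genes rose and 4.9% fell. At an unadjusted p under 0.05, 9 members were higher and 3 lower (26.5% and 8.82%), beside 13.8% and 14.4% of all genes, and DESeq2 and limma-voom each called 5 higher and 0 lower. Control and D-serine libraries were fully separate in 9 members that were higher and 2 that were lower (26.5% and 5.88%), beside 16.2% and 16.6% of all genes. In bulk RNA, fewer cells of a type and less RNA per cell cannot be told apart. The count of 5 fell to 0 when control replicate 2 was left out, to 1 without control replicate 1, and to 2 when D-serine replicate 3 was omitted. Calls over all genes fell as well, to 0.346%, 0.59% and 1.14% higher in these 3 settings, from 4.84%. Without control replicate 2, 7 members were higher and 1 lower at an unadjusted p under 0.05, beside 10.8% and 10.3% of all genes.

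**Figure D1:**
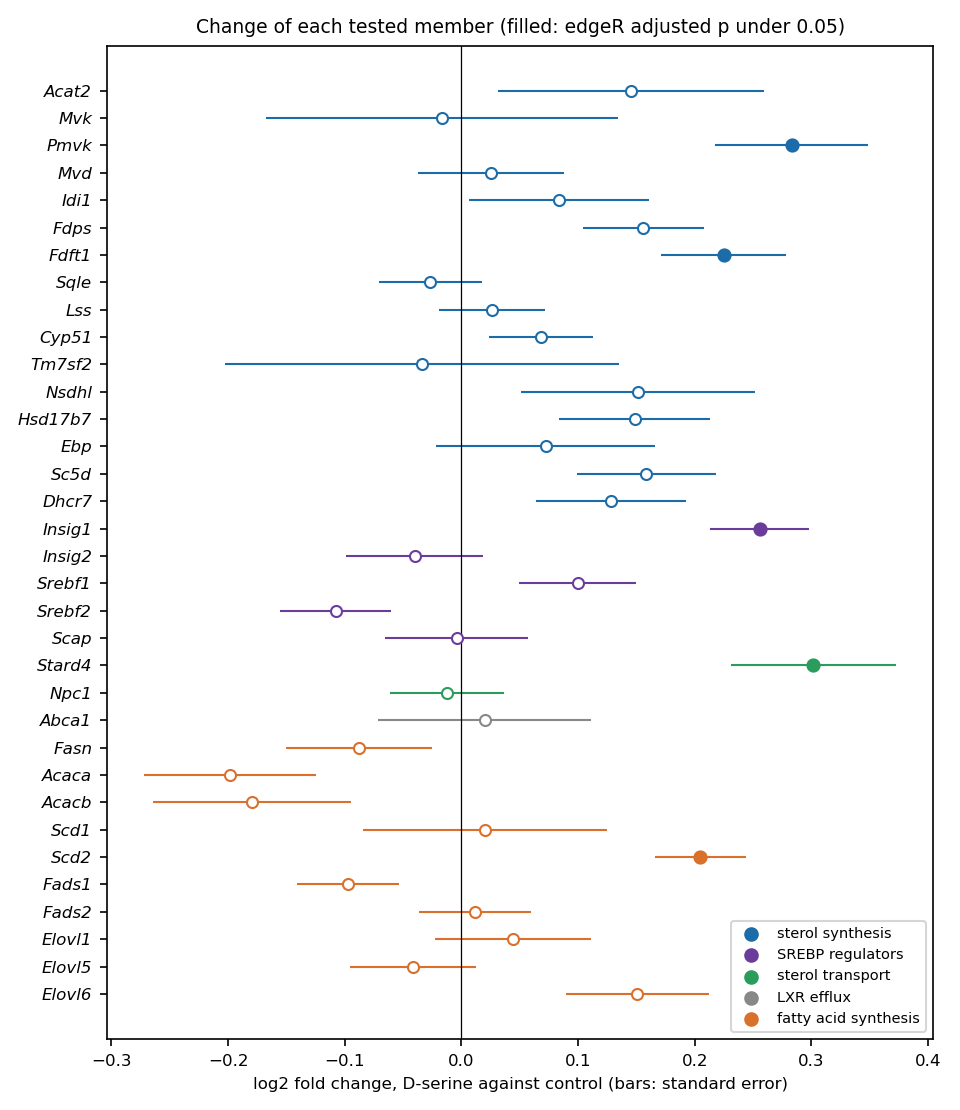
Log2 fold change (D-serine against control) of the 34 tested members by arm, with bars of 1 standard error; filled points have an adjusted p under 0.05. The 5 filled points all lie to the right of 0 and belong to Pmvk, Fdft1, Insig1, Stard4 and Scd2.

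Among the regulators, Insig1, the sterol-dependent anchor of Scap whose own gene is an SREBP target, was measured at 114, 116 and 113 CPM in control replicates 1 to 3. It was at 137, 140 and 133 CPM in D-serine replicates 1 to 3. All 3 D-serine libraries lay above all 3 controls, and Insig1 rose by a log2 fold change of 0.26 (SE 0.042, adjusted p = 0.00777). Insig1 remained called in 16 of 17 alternative analyses, with adjusted p from 8.99e-05 to 0.0501, the highest without control replicate 2. Its paralog Insig2, whose product anchors Scap likewise but whose gene is not a classical SREBP target, was at 42.2, 38.0 and 38.9 CPM in control and 39.2, 37.5 and 39.1 CPM after D-serine. The groups overlapped (log2 fold change -0.04, adjusted p = 0.697).

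The genes of the SREBPs themselves did not pass the test. Srebf1 was at 100, 106 and 111 CPM in control and 117, 110 and 113 CPM after D-serine, a log2 fold change of 0.10 (SE 0.05, adjusted p = 0.212). Srebf2 was at 207, 215 and 221 CPM in control and 189, 209 and 199 CPM after D-serine, a log2 fold change of -0.11 (SE 0.048, adjusted p = 0.161). Both pairs of groups overlapped, and the point estimates had opposite signs. Scap was at 57.5, 55.8 and 63.3 CPM in control and 55.4, 61.8 and 59.0 CPM after D-serine (log2 fold change -0.0039, adjusted p = 0.978). Of the 5 regulators 1 rose and 0 fell, beside 4.84% and 4.9% of all genes. At an unadjusted p under 0.05, 1 was higher and 1 lower (20% each), beside 13.8% and 14.4% of all genes.

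The sterol synthesis arm makes mevalonate from acetyl-CoA, joins isoprenoid units to squalene, and converts lanosterol to cholesterol. Of its 17 members 16 were tested, and 2 rose and 0 fell, beside 4.84% and 4.9% of all genes. An unadjusted p under 0.05 was reached by 5 higher (31.2%) and 0 lower, beside the 13.8% and 14.4% of all genes. The log2 fold change was positive in 13 of 16 (81.2%), with a median of 0.11, beside 51.5% of all tested genes and a median of 0.0053. In 6 members (37.5%) the groups did not overlap, all of them higher, beside 16.2% of all genes higher and 16.6% lower without overlap.

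Pmvk, the kinase that makes mevalonate diphosphate, was at 26.6, 26.8 and 28.9 CPM in control and 35.2, 33.5 and 31.5 CPM after D-serine. Each D-serine library exceeded each control (log2 fold change 0.28, SE 0.066, adjusted p = 0.0217). Fdft1, squalene synthase, the first step committed to sterols, was at 67.7, 62.0 and 62.7 CPM in control and 78.4, 73.4 and 73.0 CPM after D-serine. Again the groups were separate (log2 fold change 0.22, SE 0.054, adjusted p = 0.0237). Exons of Fdft1 share 773 bases with Ctsb on the opposite strand, whose own log2 fold change was 0.016 (adjusted p = 0.85). Leaving out control replicate 2 ended both calls and gave the highest adjusted p of the 17 alternatives, 0.0956 for Pmvk and 0.115 for Fdft1. Other settings ended calls too. Pmvk was called in 14 of the 17 alternatives and Fdft1 in 12. Of the 6 fits that left out a library, Pmvk was called in 4 and Fdft1 in 2.

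The other genes of the early, mevalonate end had smaller or less certain values. Fdps, which makes farnesyl diphosphate, was at 50.2, 50.4 and 51.5 CPM in control and 59.2, 55.4 and 54.8 CPM after D-serine. Its groups did not overlap, and its log2 fold change of 0.16 had an adjusted p of 0.0721. Acat2, the thiolase of the first step, had a log2 fold change of 0.15 (adjusted p = 0.431) and Idi1, the isomerase, one of 0.08 (adjusted p = 0.512). Mvk and Mvd, the kinase before and the decarboxylase after Pmvk, were at -0.02 and 0.03 (adjusted p = 0.959 and 0.831). Point estimates of neighbouring steps were unequal, with Pmvk called and Mvk and Mvd near 0, but differences between steps were not tested. Mvk had only 126 to 165 counts per library and an SE of 0.15, against 0.063 for Mvd.

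Past squalene, Sqle, the epoxidase and a slow step of the pathway, was at 125, 123 and 124 CPM in control and 125, 123 and 117 CPM after D-serine. Its groups overlapped, at a log2 fold change of -0.03 (SE 0.044, adjusted p = 0.734). Lss, the cyclase that follows, was at 0.03 (adjusted p = 0.751). Cyp51, Sc5d and Dhcr7, which remove a methyl group from lanosterol and set the final double bonds, were higher without overlap but not past the test. Their log2 fold changes were 0.07, 0.16 and 0.13 (adjusted p = 0.338, 0.107 and 0.207). Nsdhl and Ebp, further enzymes of this stretch, were at 0.15 and 0.07, and Tm7sf2, a sterol reductase measured at only 113 to 161 counts, at -0.03 (adjusted p = 0.349, 0.653 and 0.924). Hsd17b7, a sterol ketoreductase, was at 42.7, 42.4 and 39.4 CPM in control and 42.0, 48.5 and 47.4 CPM after D-serine. D-serine replicate 1 alone lay among its controls (log2 fold change 0.15, adjusted p = 0.153), and without that library the adjusted p was 0.0218.

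Hmgcs1, the synthase that makes HMG-CoA, could not be assessed. It had 0 counts in all 6 libraries. The table places it only on a contig of chromosome 13 labelled random. All 63 genes that the table lists solely on such contigs had 0 counts. The value of 0 is therefore not read as absence of its RNA.

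**Figure D2:**
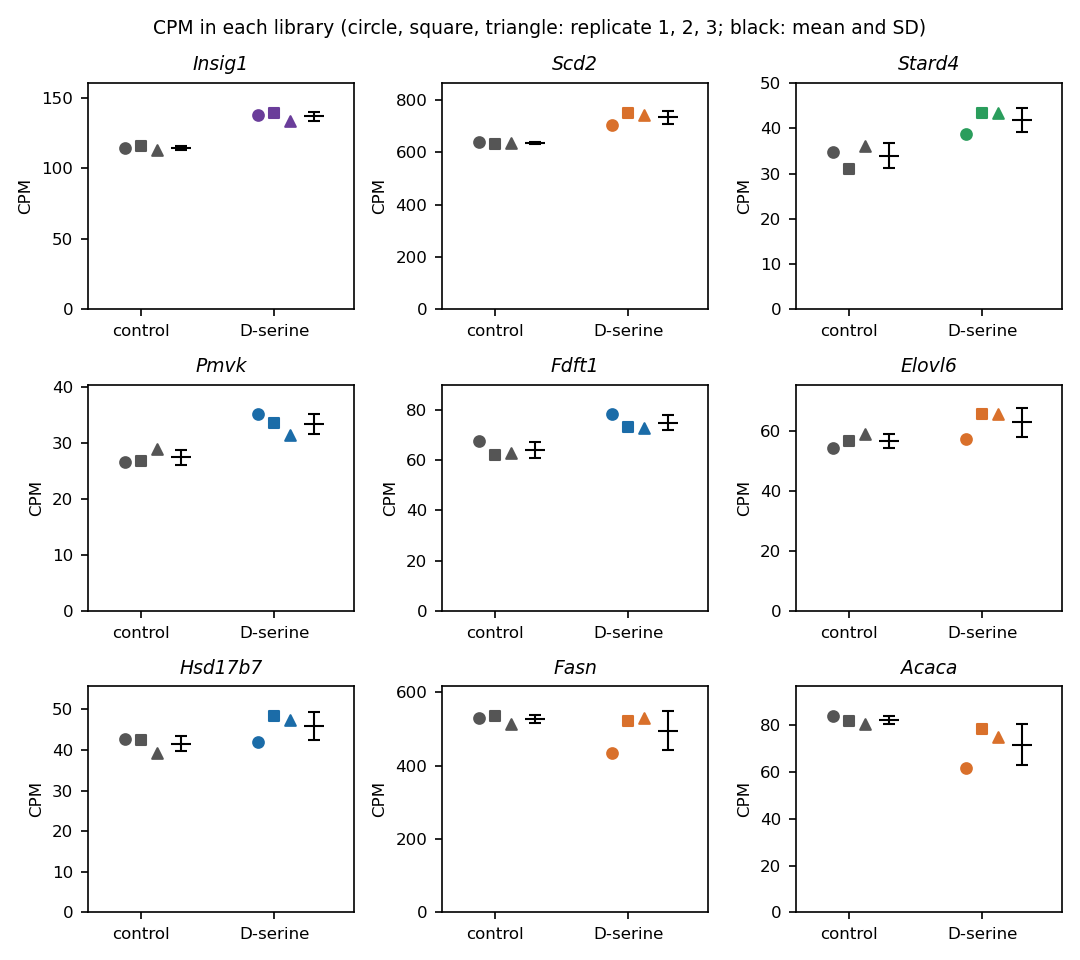
Level in CPM (axes from 0) of 9 members in each of the 6 libraries, with the mean and SD of each group in black. All D-serine libraries lie above all controls for Insig1, Pmvk, Fdft1, Stard4 and Scd2, whereas Fasn and Acaca are lowest in D-serine replicate 1.

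Of the sterol transport genes, 1 of 2 rose and 0 fell, beside 4.84% and 4.9% of all genes, and 2 genes are too few to read as a share. Stard4, a soluble carrier that moves cholesterol between membranes and is an SREBP-2 target, was at 34.8, 30.98 and 36.2 CPM in control and 38.8, 43.5 and 43.4 CPM after D-serine. The groups did not overlap (log2 fold change 0.30, SE 0.071, adjusted p = 0.0222), although the adjusted p was 0.105 without control replicate 2, the highest of the 17 alternatives. Stard4 was called in 13 of the 17, and in 3 of the 6 that left out a library. Npc1, which exports cholesterol from lysosomes, was at 65.2 to 68.5 CPM in control and 63.8 to 67.4 CPM after D-serine (log2 fold change -0.01, adjusted p = 0.904). LXR efflux genes gave no call. Abca1, which loads cholesterol onto apolipoproteins, was at 13.1, 13.4 and 11.8 CPM in control and 11.7, 13.7 and 13.3 CPM after D-serine. The groups overlapped (log2 fold change 0.02, SE 0.092, adjusted p = 0.918). Abcg1, its partner in efflux, had 0, 2 and 4 counts in control and 0, 1 and 0 with D-serine, too few to test.

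In the fatty acid arm, 1 of 10 members rose and 0 fell, beside 4.84% and 4.9% of all genes. An unadjusted p under 0.05 was reached by 2 higher and 2 lower (20% each, beside 13.8% and 14.4% of all genes). The log2 fold change was positive in 5 of 10 (50%), with a median of -0.02 that became 0.015 under upper quartile scaling and 0.014 under library totals. The sterol median was 0.14 under both of these scalings. Both scalings moved the median of all genes likewise, from 0.0053 to 0.035, so the fatty acid median lay below that of all genes under each. By library, the median deviation of the sterol members from the control mean was 0.11, 0.05 and 0.10 in D-serine replicates 1 to 3 and between -0.02 and 0.01 in the controls. For the fatty acid members it was -0.05, -0.02 and -0.0015 with D-serine and between -0.0097 and 0.0034 in control, on a scale of log2(CPM + 0.5). No test was made of the difference between the arms.

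Scd2, the main stearoyl-CoA desaturase of neural tissue, was the member that rose here. It was at 639, 633 and 638 CPM in control and 706, 753 and 742 CPM after D-serine. Every D-serine library exceeded every control (log2 fold change 0.20, SE 0.039, adjusted p = 0.0118). Scd2 was called in 13 of 17 alternatives, and its highest adjusted p was 0.0713, without control replicate 2. Scd1, the isoform typical of liver and fat, was at 9.17 ± 0.763 CPM in control and 9.29 ± 0.784 CPM after D-serine (n = 3 per group, SD; log2 fold change 0.02, adjusted p = 0.926). Scd3, a further copy, was at 12.7 CPM in both groups (log2 fold change 0.0011, adjusted p = 0.996). Scd4, another, was at 1.35 ± 0.876 CPM in control and 2.48 ± 1.05 CPM after D-serine. Its groups overlapped and it was not called (log2 fold change 0.90, SE 0.40, adjusted p = 0.160).

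Fasn, the synthase that builds palmitate, was at 531, 537 and 514 CPM in control and 436, 523 and 529 CPM after D-serine. D-serine replicate 1 was the low library and the others overlapped the controls (log2 fold change -0.09, SE 0.062, adjusted p = 0.382). Acaca, the carboxylase that makes malonyl-CoA for Fasn, was at 84.2, 82.1 and 80.8 CPM in control and 61.7, 78.5 and 75.2 CPM after D-serine. All 3 D-serine libraries lay below the controls, by far the most in replicate 1, and the log2 fold change of -0.20 did not pass (SE 0.074, adjusted p = 0.102). It passed in 2 of the 17 alternatives, without a filter on low counts (adjusted p = 0.0339) and without D-serine replicate 2 (adjusted p = 0.0351). Its paralog Acacb, the mitochondrial form, had a log2 fold change of -0.18 (adjusted p = 0.184).

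The desaturases and elongases of longer chains were mixed. Fads1, the delta-5 desaturase of polyunsaturated fatty acids, was lower without overlap (log2 fold change -0.10, adjusted p = 0.167), and Fads2, the delta-6 desaturase, was at 0.01 (adjusted p = 0.907). Elovl6, which extends palmitate to stearate, was at 54.3, 56.5 and 58.7 CPM in control and 57.3, 65.5 and 65.5 CPM after D-serine. As for Hsd17b7, D-serine replicate 1 was the library within the control range (log2 fold change 0.15, adjusted p = 0.128). Elovl1 and Elovl5 had log2 fold changes of 0.04 and -0.04 (adjusted p = 0.707 and 0.654).

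Gene length moved with the fold changes of all genes. The median log2 fold change was 0.11 over 1088 genes with exons summing to under 1000 bases and -0.14 over 619 genes above 8000 bases. Without D-serine replicate 1 these medians were 0.07 and -0.06. The fatty acid members had a median length of 5144 bases and the sterol synthesis members one of 2234 bases, so the arms sit at different points of that trend. Fasn (9938 bases), Acaca (9032 bases) and Acacb (8485 bases) lie at its long end, and Scd2 (5451 bases) rose although genes of 4000 to 6000 bases had a median of -0.04.

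With the trend on length removed in each library, 7 members rose and 0 fell, where 7.67% of all genes rose and 7.65% fell. Without D-serine replicate 1, 7 members also rose and 0 fell, where 5.78% and 6.76% of 13553 genes did. The 7 were the same genes in both analyses, namely the 5 above with Hsd17b7 and Elovl6. At an unadjusted p under 0.05, 1 member was lower with the trend removed and 3 were lower without the library, beside 14.5% and 14.2% of all genes. The log2 fold change of Scd2 was 0.27 with the trend removed (adjusted p = 1.31e-05) and 0.23 without the library (adjusted p = 0.000107). That of Elovl6 was 0.22 and 0.21 (adjusted p = 0.0055 and 0.0104). Fasn was at 0.05 and -0.0030, and Acaca at -0.08 and -0.10, with no call in either. Under these settings 2 of the 10 fatty acid members, Scd2 and Elovl6, and 3 of the 16 sterol synthesis members, Pmvk, Fdft1 and Hsd17b7, rose. With the trend removed, the sterol median was 0.1047 and the fatty acid median -0.0178, beside 0.1059 and -0.01502 in the fit without removal. Without D-serine replicate 1 they were 0.09046 and 0.007042.

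**Figure D3:**
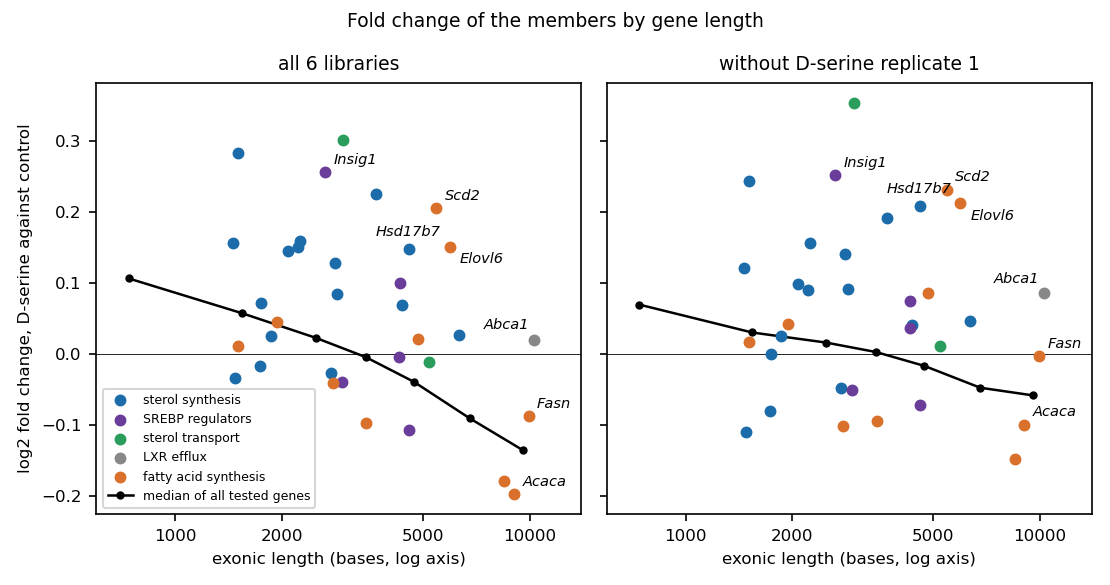
Log2 fold change of each tested member against its exonic length in bases (log axis), with all 6 libraries on the left and without D-serine replicate 1 on the right; the black line joins medians of all tested genes by length class. The line falls with length in both panels, less steeply on the right, where Fasn moves to about 0 and Scd2 and Elovl6 stay above the line.

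Per kilobase of exon, control levels ranged from 117 CPM for Scd2 to 1.24 CPM for Abca1 among tested members. After Scd2 came Fasn at 53.1 ± 1.19 and Fads1 at 50.8 ± 0.660, which differed by more than the SD of either. Srebf2 (46.9 ± 1.55), Sqle (45.1 ± 0.447), Insig1 (43.3 ± 0.595), Fads2 (42.1 ± 0.162) and Elovl5 (41.5 ± 1.01) followed (SD, n = 3 each). Of these neighbours, Srebf2 and Sqle, and likewise Fads2 and Elovl5, differed by less than the sum of their SDs. Srebf1 was at 24.6 ± 1.32, below Srebf2. Scd1, at 1.90 ± 0.158, was near the bottom. The genes that rose were spread over the range, from Scd2 at the top through Insig1 to Pmvk (18.2), Fdft1 (17.4) and Stard4 (11.4).

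**Figure D4:**
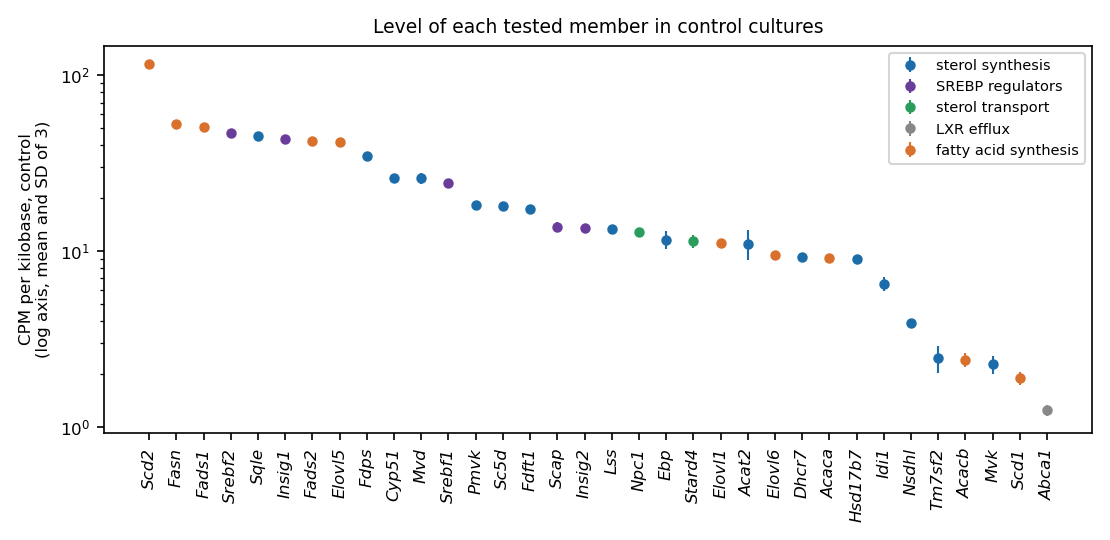
Mean level of each of the 34 tested members in control libraries, in CPM per kilobase of exon (log axis), with bars of 1 SD (n = 3), coloured by arm. Scd2 is highest at 117 and Abca1 lowest at 1.24.

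Of 42 further genes of these pathways, 41 were tested, 1 rose (2.44%) and 3 fell, beside 4.84% and 4.9% of all genes. Their median log2 fold change was 0.010. At an unadjusted p under 0.05, 4 were higher and 11 lower (9.76% and 26.8%), beside 13.8% and 14.4% of all genes. The groups did not overlap in 6 that were higher and 12 that were lower (14.6% and 29.3%), beside 16.2% and 16.6%. Coq2, which attaches the isoprenoid tail of coenzyme Q, rose from 24.7 ± 1.68 to 32.4 ± 2.47 CPM (log2 fold change 0.39, adjusted p = 0.0116). It was the only one called in this fit among 6 of the isoprenoid branch, which draws on the farnesyl diphosphate made by Fdps. Mbtps2, the site-2 protease that releases SREBPs, fell from 80.2 ± 2.82 to 70.1 ± 3.74 CPM (log2 fold change -0.20, adjusted p = 0.0384), the only call in this fit among 7 genes of SREBP processing and degradation. Stard3, an endosomal sterol carrier, fell from 14.8 ± 1.51 to 12.0 ± 0.234 CPM (log2 fold change -0.31, adjusted p = 0.0464), the only call among 7 of sterol handling. Me1, malic enzyme, a source of NADPH for fatty acid synthesis, fell from 150 ± 3.14 to 135 ± 3.97 CPM (log2 fold change -0.15, adjusted p = 0.0425), the only call among 7 of fatty acid supply. Among 8 tested genes of fatty acid elongation 0 passed the edgeR test. At an unadjusted p under 0.05, 0 were higher and 2 lower (0% and 25%), beside 13.8% and 14.4% of all genes. DESeq2 called 1 of these lower, the reductase gene Tecr (adjusted p = 0.0451, against 0.0624 in edgeR), and limma-voom 0. Among 6 LXR pathway genes 0 passed in edgeR, DESeq2 or limma-voom. At an unadjusted p under 0.05 in edgeR, 1 was higher and 2 lower (16.7% and 33.3%), beside 13.8% and 14.4% of all genes. With the length trend removed, 3 of the 41 genes rose and 6 fell, beside 7.67% and 7.65% of all genes. Without D-serine replicate 1, 1 rose and 5 fell, beside 5.78% and 6.76% of all genes. The 4 genes called above were among them in both settings. Tecr was lower in both settings (log2 fold change -0.27 and -0.25, adjusted p = 0.0023 and 0.00822). So was Ube2g2, a ubiquitin-conjugating enzyme of sterol-regulated degradation (-0.13 and -0.14, adjusted p = 0.00809 and 0.012). With the trend removed alone, Nus1, a subunit of the dolichol-making transferase, and Rxra, an LXR partner, were higher, and Lpcat3, an LXR target, was lower (adjusted p = 0.0366, 0.0292 and 0.0484). Coq2 was called in 14 of the 17 alternatives, Mbtps2 and Me1 in 9 each, and Stard3 in 8. Adjusted p reached 0.0652 for Coq2 and between 0.141 and 0.160 for the others. Limma-voom did not call Stard3 (adjusted p = 0.05445), and upper quartile scaling and library totals gave 0 lower calls.

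Some counts may be shared between genes. Exons of 7 members overlap another gene of the table, by 773 bases for Fdft1 and by at most 381 bases for the others, and the strand setting of the counting is not given in the sources used here. Of the near-identical copies, Acat3 had 14 to 26 counts per library, Idi2 had 2 to 13 and Scd4 had 28 to 130. Scd3 had 413 to 541, above the 309 to 381 of Scd1.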

How the data were processed

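The deposited table holds raw gene counts of 6 libraries (3 control, 3 D-serine), with exon coordinates and summed exon length, in the column layout of featureCounts per the file headers. The submitters' processing notes name bcl2fastq, Trim Galore, HISAT2, Subread, featureCounts and DESeq2, with the builds GRCm38 and mm10. Only 2 of the 36 members have the same start in the GRCm38 RefSeq annotation, so coordinates of the table are not printed. Strand setting and handling of multiply mapped reads are not given in the sources used here.

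Counts as deposited were tested in R 4.3.3 with edgeR 4.0.16: filterByExpr (13366 genes), trimmed mean of M values (TMM) scaling, quasi-likelihood F test, D-serine against control, no covariate, two-sided, Benjamini-Hochberg adjustment over all genes tested, threshold 0.05. CPM values were computed by edgeR from the deposited counts after TMM adjustment of library sizes. Standard errors were computed as the absolute log2 fold change over the root of the F statistic. Depth of 32518483 to 40024265 counts leaves genes under about 10 counts per library untested.

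Alternatives were DESeq2 1.42.0, limma-voom (limma 3.58.1), 3 scalings, no filter, a minimum mean of 50 counts, a block for replicate number, removal of the length trend per library (natural spline, 5 degrees of freedom) with and without the block, and leaving out each library. Removal of the trend together with D-serine replicate 1 was added after seeing the data. Scripts were tested on simulated data. The members and lists were chosen with earlier results of these data known. Values per library are given for members past the threshold and for Srebf1, Srebf2, Scap, Insig1, Insig2, Fasn, Scd2, Abca1 and Abcg1. Fdps, Sqle, Hsd17b7, Acaca and Elovl6 also have them, chosen after their values were seen, as were Tecr, Ube2g2, Nus1, Rxra and Lpcat3. Genes outside the members are otherwise named when past the threshold in a fixed list, or as near-identical copies.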

Additional observations from a re-analysis of the deposited data

How the results depend on the processing

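Of 578 values (34 members, 17 alternatives), 503 kept their direction and side of the threshold, 17 lost a call and 12 gained one (in Fdps, Hsd17b7, Acaca and Elovl6). The sign changed in 46, from 13 members, of which 0 were called members, at a size of at most 0.112 and an adjusted p of at least 0.198. DESeq2, limma-voom, DESeq2 size factors, no filter and a mean of at least 50 counts each called 5 members higher, and upper quartile scaling and library totals called 6. Those 2 scalings gave 914 higher and 412 lower, and 944 and 412, of all genes, against 647 and 655. The members higher ranged from 0 to 7 on leaving out a library. The members lower ranged from 0 to 1 likewise, and numbered 1 (Acaca) without a filter. Same-numbered libraries of the groups did not deviate together (correlations of -0.06, 0.02 and -0.02), and with replicate number as a block 1 member, Insig1, was called (adjusted p = 0.0440), where 1.33% of all genes were higher. The block with the length trend removed called 7 members higher, where 7.09% of all genes were. The sterol median was 0.1355 under upper quartile scaling and 0.135 under library totals. The fatty acid median was 0.01505 and 0.01432 under these, -0.03255 to 0.007042 on leaving out a library, and 0.006405 with the length trend and D-serine replicate 1 both removed. The cause of these changes was not tested. Signs changed for upper quartile scaling and library totals in Mvk (0.01331, 0.01244), Sqle (0.003221, 0.002591), Scap (0.02541, 0.02529) and Npc1 (0.01731, 0.01689). With the length trend removed, without and with the block, they changed in Mvd (-0.01154, -0.01069), Scap (0.0249, 0.02628), Npc1 (0.04396, 0.04437), Fasn (0.04713, 0.04701) and Fads2 (-0.0469, -0.04721). With the trend and D-serine replicate 1 both removed they changed in Ebp (-0.02156), Scap (0.05173), Npc1 (0.04213), Fasn (0.05987) and Fads2 (-0.01608). Leaving out a library gave Mvk -0.112 to 0.04734, Mvd -0.01285 to 0.08647, Sqle -0.04818 to 0.001097, Tm7sf2 -0.1495 to 0.1121, Ebp -0.01419 to 0.1568, Insig2 -0.07025 to 0.006481, Scap -0.04155 to 0.05321, Npc1 -0.02721 to 0.01136, Abca1 -0.03393 to 0.08554, Scd1 -0.04412 to 0.08527, Fads2 -0.01046 to 0.028 and Elovl5 -0.102 to 0.001376. Depth limits Abcg1, Tm7sf2 and Mvk, and Hmgcs1 is not measured.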
